A study of Homo sapiens with 16 samples.

Results

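Human tyrosine phosphatases of the non-receptor (PTPN) and receptor (PTPR) families other than SHP2 and SHP1 were followed in tumours of the breast cancer line BT474 with and without knockdown of SHP2. Membership was set by symbol alone, in a rule chosen with earlier results of these data known. The rule took PTPN with a number, or PTPR with 1 capital letter and at most 1 digit, without PTPN11 (SHP2) and PTPN6 (SHP1). Of 18377 genes with a transcript cluster of their own on the array, 31 met this rule, 15 PTPN and 16 PTPR genes. PTPN20 had 4 clusters and was represented by the one with the highest mean. PTPRA, PTPRJ, PTPRQ and PTPRT had no cluster annotated to them alone and were not analysed here.

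BT474 is a HER2-positive human cell line. In all 3 groups the cells carried a lentiviral vector switched on by doxycycline and were grown orthotopically (mammary fat pad) in immunodeficient mice. Once tumours had formed, all groups received doxycycline for 30 days, at 2 g per L of drinking water. The vector expressed hairpin SHP2 miR1 in 7 tumours, hairpin SHP2 miR2 in 3 tumours and the control hairpin CTRL miR in 6 tumours, with 1 human gene array (HuGene-1_0-st) per tumour. The sources used here give neither strain, age and number of the mice nor which tumours shared an animal, so that p-values measure the spread between these tumours. Whole tumours with their mouse host cells were measured, and a smaller share of a cell type and less RNA per cell cannot be told apart.

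Classical tyrosine phosphatases remove phosphate from tyrosine residues and so oppose or tune tyrosine kinases. Non-receptor members differ by the domains that place them in the cell, such as FERM and PDZ domains that bind membrane proteins or a kinase interaction motif that binds MAP kinases. Receptor members carry an outer part that meets other cells, matrix or secreted ligands, and a number of them sit at contacts between epithelial cells. SHP2 itself differs from most of the family in that it promotes signalling from receptor tyrosine kinases.

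Of the 31 genes, 29 had a promoter window in the RefSeq table for GRCh38.p14, which runs from 250 bases before to 50 bases after a start listed there (the outermost listed start where there are several). The windows of 4 genes are printed below, 5′ to 3′ on the strand of the gene, because these genes carry the results. They passed when both hairpins, averaged at equal weight, were compared with CTRL miR. Of the 4, only PTPRU passed with SHP2 miR1 alone as well as with SHP2 miR2 alone. Capitals mark matches to a searched motif on either strand.
PTPN7: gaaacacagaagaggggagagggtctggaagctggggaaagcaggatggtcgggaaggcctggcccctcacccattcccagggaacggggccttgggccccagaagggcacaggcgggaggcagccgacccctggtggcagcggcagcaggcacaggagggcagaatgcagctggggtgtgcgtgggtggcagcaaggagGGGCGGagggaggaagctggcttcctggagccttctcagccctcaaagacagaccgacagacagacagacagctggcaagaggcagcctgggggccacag
PTPRC: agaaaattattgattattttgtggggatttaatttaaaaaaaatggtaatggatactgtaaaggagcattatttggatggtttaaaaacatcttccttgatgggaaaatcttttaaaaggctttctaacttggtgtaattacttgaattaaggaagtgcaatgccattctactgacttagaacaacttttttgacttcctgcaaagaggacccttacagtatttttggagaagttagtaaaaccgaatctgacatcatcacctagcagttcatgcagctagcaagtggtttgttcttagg
PTPRO: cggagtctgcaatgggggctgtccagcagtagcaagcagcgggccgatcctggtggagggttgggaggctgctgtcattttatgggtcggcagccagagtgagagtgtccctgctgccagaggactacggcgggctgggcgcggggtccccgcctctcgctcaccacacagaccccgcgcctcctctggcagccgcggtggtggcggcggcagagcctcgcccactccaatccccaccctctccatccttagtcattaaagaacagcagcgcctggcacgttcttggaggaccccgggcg
PTPRU: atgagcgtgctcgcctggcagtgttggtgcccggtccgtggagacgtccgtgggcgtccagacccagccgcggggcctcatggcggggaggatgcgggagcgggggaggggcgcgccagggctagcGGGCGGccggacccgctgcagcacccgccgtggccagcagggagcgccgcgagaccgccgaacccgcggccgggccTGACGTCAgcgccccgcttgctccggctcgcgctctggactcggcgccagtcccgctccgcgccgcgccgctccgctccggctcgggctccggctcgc
These lie at chr1:202160553-202160852 on the minus strand for PTPN7, and on the plus strand at chr1:198638790-198639089 for PTPRC, chr12:15322258-15322557 for PTPRO and chr1:29236272-29236571 for PTPRU. The windows of PTPRC and PTPN7 lie inside the span that RefSeq gives to the gene, downstream of its outer end, so that other starts of these genes are not shown. The search covered the ETS motif CCGGAAGT, the CRE TGACGTCA and the PU.1 type motif GAGGAAGT. It also covered an E-box, a GC box and a TATA motif, whose letters stand with their counts, and none of the motifs is part of another. The PTPRU window, 78.7% G and C with 47 CpG, held 1 GC box and 1 CRE. That of PTPRC was the opposite in base composition, with 33.7% G and C, 1 CpG and no match. PTPRO (66.7%, 21 CpG) held no match either, and PTPN7 (66.3%, 8 CpG) held a GC box. Over the 29 windows, the GC box (GGGCGG) was found in 18 (62.1%, against 45.0% of all 35116 windows), a CRE in PTPRS and PTPRU (6.9% against 1.85%) and the TATA motif (TATAAA) in none (0% against 11.5%). ETS and PU.1 type matches were found in 1 window each (3.45%), PTPN23 and PTPRH, against 4.14% and 2.59% of all windows. The E-box (CACGTG) was found in PTPRS alone among the 29 (3.45% against 7.26%). The median window of the family held 68.7% G and C and 33 CpG, against 58.7% and 14 over all windows. The 29 windows are 1 per gene, at its outermost start, whereas the 35116 hold every listed start of every gene. The 2 sets are therefore not alike, and their differences are not read as a trait of the family. A match is a string of letters and does not show that a factor binds there.

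Values are log2 signals, and each change is a difference of group means on that scale with its standard error (SE) from a limma fit over all genes. Genes with an adjusted p under 0.05 are said to pass or to be called. PTPN11 averaged 6.93 ± 0.19 with SHP2 miR1 (SD, n = 7) and 6.46 ± 0.10 with SHP2 miR2 (n = 3), against 8.4 ± 0.16 with CTRL miR (n = 6), and every knockdown tumour lay below every control. Markers of luminal, HER2-amplified cells were high in all tumours, with a list mean of 9.28 to 9.57 in knockdown tumours and 8.85 to 9.48 in controls. Several arrays stood apart in ways the labels do not give. IRS4 read 2.97 to 3.91 in all 10 knockdown tumours and 3.16 to 3.77 in control tumours 2 and 5, but 7.14 to 8.29 in control tumours 1, 3, 4 and 6. By the mean of 5 noncoding RNAs the arrays also fell into a set A (miR1 tumours 1 to 4, control tumours 1 to 3; 8.19 to 8.39) and a set B (the other 9; 6.81 to 7.21). The arrays of miR2 tumours 1 and 3 had a narrower spread of values than the other 14, with an SD over clusters of 1.89 against 1.95 to 2.07 and a lower quartile of 4.01 to 4.04 against 3.72 to 3.94.

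Of the 31 phosphatase genes, 2 to 5 passed in each comparison with CTRL miR. For both hairpins at equal weight, PTPN7, PTPRC and PTPRO rose and PTPRU fell, 4 of 31 (12.9%, against 18.6% of all genes, 5.52% higher and 13.1% lower). With SHP2 miR1 alone PTPRK rose and PTPRU fell, 2 of 31 (6.45%, against 4.76% of all genes, 1.38% higher and 3.38% lower). With SHP2 miR2 alone PTPN5, PTPN7, PTPRC and PTPRO rose and PTPRU fell, 5 of 31 (16.1%, against 30.0% of all genes, 11.8% higher and 18.2% lower). These comparisons share the 6 control tumours. The median change over the 31 genes was 0.10 for both hairpins, 0.10 for miR1 and 0.08 for miR2, against 0.03, 0.02 and 0.02 over all genes. No member separated all 10 knockdown tumours from all 6 controls, as 0.463% of all genes did.

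**Figure D1:**
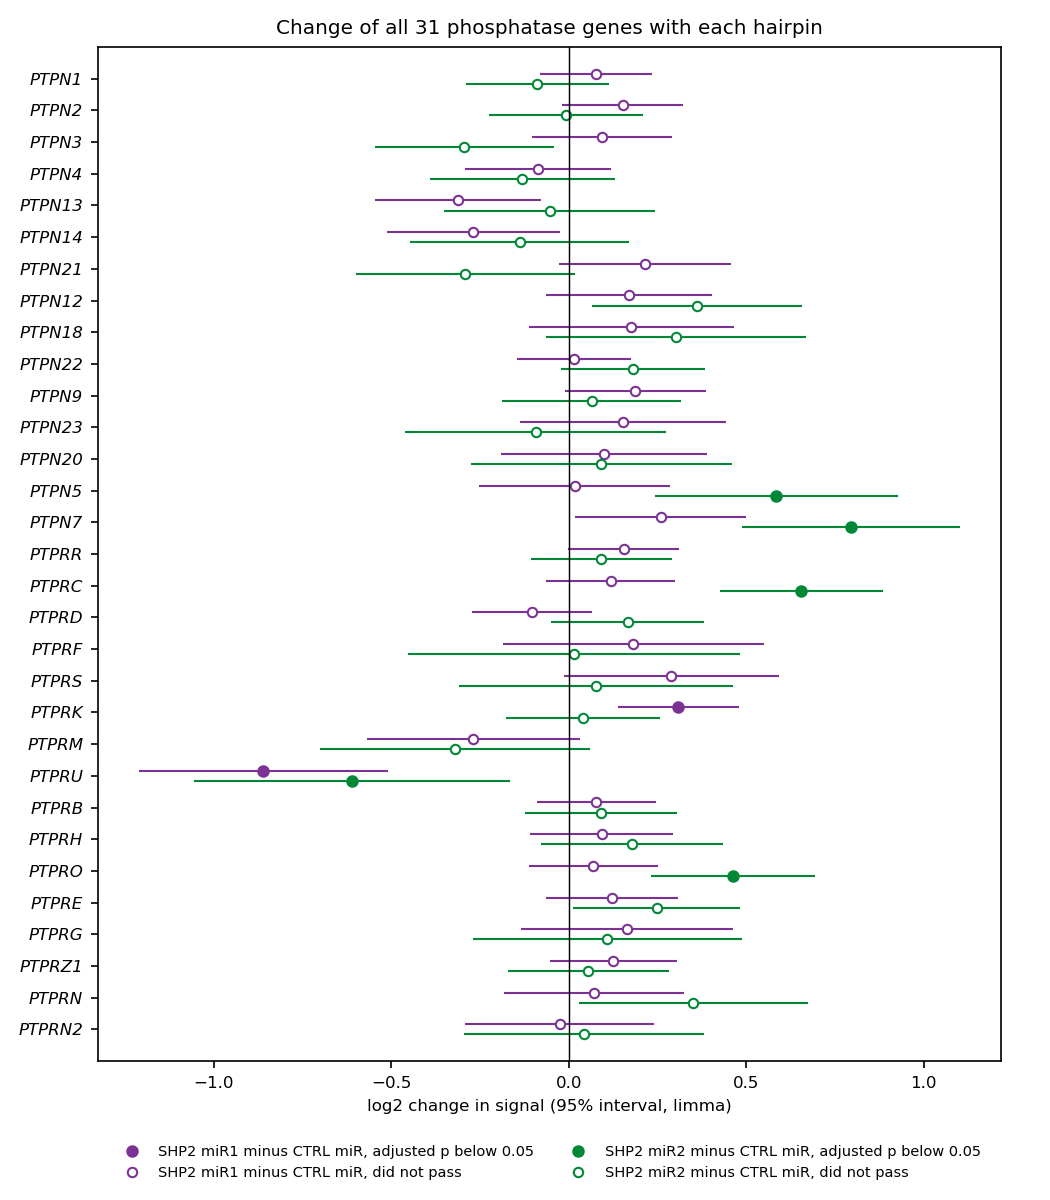
Change in log2 signal of each of the 31 genes with SHP2 miR1 (purple, upper) and SHP2 miR2 (green, lower) minus CTRL miR; points are limma estimates, lines 95% intervals, and filled points passed at an adjusted p below 0.05. PTPRU lies left of 0 with both hairpins, and PTPN5, PTPN7, PTPRC and PTPRO lie furthest right with miR2.

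These calls depended on which control tumours entered the fit. Against control tumours 2 and 5 alone, none of the 31 genes passed for both hairpins, miR1 or miR2 (limma; 2, 2 and 5 genes had an unadjusted p below 0.05), where 0.751%, 0.136% and 4.37% of all genes passed. Against control tumours 1, 3, 4 and 6 alone, a setting added after seeing the data, 12, 6 and 9 genes passed, where 35.5%, 18.8% and 45.9% of all genes did. PTPN12, PTPN5, PTPRE, PTPRK and PTPRN then rose, and PTPN13, PTPN14 and PTPRM fell, beside the 4 genes above for both hairpins. Among the controls themselves, 8 of the 31 genes did not overlap between tumours 1, 3, 4 and 6 and tumours 2 and 5 (35.6% of all genes did so). PTPN13, PTPN14, PTPRM and PTPRU were higher in the 4 tumours, and PTPN21, PTPRC, PTPRK and PTPRN2 were lower.

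PTPRU is a receptor phosphatase of the MAM domain group that is found at cell contacts. Among the members it showed the widest change with miR1 and for both hairpins, though not with miR2. It had 4.53, 4.71 and 4.94 (lowest, median and highest) in SHP2 miR1 tumours and 5.13, 4.74 and 5.05 in SHP2 miR2 tumours 1 to 3, against 4.77, 5.65 and 6.17 in CTRL miR tumours. All knockdown tumours were low, and of the controls tumour 2 (4.77) lay among them while the other 5 lay above. With miR1 PTPRU fell by 0.86 ± 0.17 (SE, limma adjusted p = 0.0114), to 0.551 of the control signal, and the exact permutation p (two-sided) was 0.00466. With miR2 it fell by 0.61 ± 0.21 (adjusted p = 0.0373), and the exact test gave p = 0.0952, where 0.0238 is the smallest it allows for 3 against 6 tumours. For both hairpins the change was -0.74 ± 0.16 (adjusted p = 0.00485), and the miRs did not differ by a test (miR1 minus miR2 -0.25, 95% interval -0.68 to 0.19, adjusted p = 0.374).

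The fall of PTPRU depended on which controls were used. Control tumours 1, 3, 4 and 6 had 6.03, 6.17, 5.53 and 5.76, and control tumours 2 and 5 had 4.77 and 5.23. Against tumours 1, 3, 4 and 6 alone the change with miR1 was -1.15 (adjusted p = 2.91e-07). Against tumours 2 and 5 alone the miR1 change was -0.28 (adjusted p = 0.832). The miR2 change was then -0.03 (adjusted p = 0.934). Within each array set every knockdown tumour lay below every control: 4.53 to 4.71 against 4.77 to 6.17 in set A, and 4.74 to 5.13 against 5.23 to 5.76 in set B. In that direction 0.626% of all genes did so in both sets. The miR1 call was lost in set A alone and in set B alone, where 0.0544% and 0.00544% of all genes passed. In set B alone PTPRU passed for miR2 and for both hairpins (13.9% and 1.67% of all genes). The miR2 call was lost with the array set as a block (-0.63, adjusted p = 0.057), with only the groups compared in the fit (-0.61, 0.0992) and with a score of host markers as a covariate (-0.41, 0.612), which also ended the call for both hairpins (-0.61, 0.155). It was lost without control tumour 1 (-0.52, adjusted p = 0.0786), 3 (-0.49, 0.0759) or 6 (-0.58, 0.064) and without miR2 tumour 1 (-0.69, 0.0691), 2 (-0.49, 0.12) or 3 (-0.65, 0.0945).

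The other MAM members, PTPRK and PTPRM, are receptors that bind the same molecule on a neighbouring cell, and PTPRK is known from epithelia. PTPRK had 9.01, 9.04 and 9.11 (lowest, median and highest) in SHP2 miR1 tumours and 8.67, 9.0 and 8.69 in SHP2 miR2 tumours 1 to 3, against 8.55, 8.75 and 8.95 in CTRL miR tumours. All 7 miR1 tumours lay above every control, without overlap (1 of 31 members was higher in this way, against 0.745% of all genes). miR2 tumours 1 and 3 lay among the controls. With miR1 PTPRK rose by 0.31 ± 0.08 (SE, limma adjusted p = 0.0349), and the exact permutation test gave p = 0.00117, the smallest it allows. With miR2 the change was 0.04 ± 0.10 (adjusted p = 0.785), and the miRs did not differ past the threshold (0.27, 95% interval 0.06 to 0.48, adjusted p = 0.06).

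The rise of PTPRK lay near the threshold. It no longer passed without any 1 of the 7 miR1 tumours (0.30 to 0.32, adjusted p 0.0526 to 0.0673) or without control tumour 1, 3, 4 or 6 (0.32, 0.27, 0.29 and 0.28, adjusted p 0.0602, 0.11, 0.0945 and 0.108). Control tumours 2 and 5 had 8.95 and 8.85, above the 8.55 to 8.82 of the other 4, and against those 2 tumours alone the change was 0.15 (adjusted p = 0.883). PTPRM had 4.38 to 4.66 with miR1 and 4.48 to 4.55 with miR2, against 4.26 to 5.28 with CTRL miR. Its change for both hairpins was -0.29 ± 0.14 (adjusted p = 0.138), and its direction turned with the controls: -0.56 (adjusted p = 7.78e-05) against tumours 1, 3, 4 and 6, and 0.25 (adjusted p = 0.622) against tumours 2 and 5. The 2 control tumours had 4.26 and 4.32, below every knockdown tumour, and the other 4 had 4.92 to 5.28, above every one.

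PTPRC encodes CD45, the receptor phosphatase of white blood cells, which activates SRC family kinases by removing their inhibitory phosphate. It had 3.14, 3.39 and 3.41 (lowest, median and highest) in SHP2 miR1 tumours and 4.06, 3.57 and 3.96 in SHP2 miR2 tumours 1 to 3, against 3.11, 3.17 and 3.38 in CTRL miR tumours. The 3 miR2 tumours lay above all 13 others, although PTPRC was below the lower quartile of its array on 15 of 16 arrays. With miR2 it rose by 0.66 ± 0.11 (SE, limma adjusted p = 0.000384), with an exact permutation p of 0.0238, the smallest possible. With miR1 the change was 0.12 ± 0.09 (adjusted p = 0.531), and the difference of miR1 minus miR2 was -0.54 ± 0.11 (adjusted p = 0.00213).

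PTPN7 and PTPN5 bind MAP kinases through a kinase interaction motif. PTPN7, known from blood cells, had 4.48, 4.51 and 4.79 in SHP2 miR1 tumours and 5.22, 4.81 and 5.33 in SHP2 miR2 tumours 1 to 3, against 4.0, 4.36 and 4.77 in CTRL miR tumours. All 3 miR2 tumours lay above the other 13. PTPN7 rose by 0.79 ± 0.15 with miR2 (SE, limma adjusted p = 0.00085, exact permutation p = 0.0238), against a change of 0.26 ± 0.12 with miR1 (adjusted p = 0.232). PTPN5, known from neurons, had 4.51, 4.83 and 5.02 with miR1 and 5.63, 4.91 and 5.48 in miR2 tumours 1 to 3, against 4.52, 4.70 and 5.16 with CTRL miR. Here miR2 tumour 2 lay within the controls. PTPN5 rose by 0.58 ± 0.16 with miR2 (adjusted p = 0.0128, exact permutation p = 0.0476) and changed by 0.02 ± 0.13 with miR1 (adjusted p = 0.971). Its call was lost without miR2 tumour 1 (0.44, adjusted p = 0.104) or 3 (0.51, adjusted p = 0.0817). The remaining gene of the group, PTPRR, was below the lower quartile on all 16 arrays and did not pass.

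PTPRO, a receptor with fibronectin type III repeats known from kidney podocytes, followed the same order of tumours. It had 3.48, 3.65 and 3.81 in SHP2 miR1 tumours and 4.21, 3.81 and 4.06 in SHP2 miR2 tumours 1 to 3, against 3.34, 3.59 and 3.74 in CTRL miR tumours. The miR2 values lay above all others, with tumour 2 at the edge of the miR1 tumours, and 14 of 16 arrays had PTPRO below their lower quartile. PTPRO rose by 0.46 ± 0.11 with miR2 (SE, limma adjusted p = 0.00513, exact permutation p = 0.0238) and changed by 0.07 ± 0.09 with miR1 (adjusted p = 0.766). The call for both hairpins (0.27, adjusted p = 0.0325) was lost without control tumour 1 (0.22, 0.0995), 2 (0.25, 0.0528), 3 (0.27, 0.0658) or 6 (0.27, 0.0561) and without miR2 tumour 1 (0.22, 0.0984) or 3 (0.26, 0.0734). The other members with such repeats did not pass: PTPRB, the phosphatase of endothelium that acts on TEK, changed by 0.08 with miR1 and 0.09 with miR2, and PTPRH, known from gut epithelium, by 0.09 and 0.18.

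Other measurements moved with the rise of PTPRC, PTPN7, PTPN5 and PTPRO in SHP2 miR2 tumours, and their part in it was not tested. In all 4 genes miR2 tumours 1 and 3, whose arrays had the narrow spread, were the highest of all 16. All 4 are among the 6126 genes of lowest mean signal, of which 16.1% rose with miR2 and 4.77% fell, against 9.59% and 24.9% of the other genes. With tumour 2 as the only miR2 tumour, a setting added after seeing the data, PTPRC was 0.36 higher than with CTRL miR (adjusted p = 0.233), PTPN7 0.49 (adjusted p = 0.281), PTPRO 0.25 (adjusted p = 0.491) and PTPN5 0.15 (adjusted p = 0.818). Against control tumours 2 and 5 alone, the miR2 changes were 0.53 for PTPRC (adjusted p = 0.0529), 0.54 for PTPN7 (adjusted p = 0.0722), 0.45 for PTPRO (adjusted p = 0.0865) and 0.50 for PTPN5 (adjusted p = 0.216). Quantile normalization, which gives all arrays 1 spread, left all 4 called (27.9% of all genes passed), at 0.48, 0.69, 0.29 and 0.52 in the same order. All miR2 arrays lie in array set B. The mean of set A minus that of set B was -0.17 for PTPRC, -0.42 for PTPN7, -0.29 for PTPRO and -0.47 for PTPN5, with the miR2 tumours counted in set B. With the set as a block all 4 stayed called with miR2 (24.9% of all genes passed). In set B alone PTPRC and PTPN7 passed, and PTPRO and PTPN5 did not (13.9% of all genes passed).

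Some markers of white blood cells rose with SHP2 miR2. The mean of 12 macrophage and myeloid markers was 4.53 to 4.78 with SHP2 miR1 and 4.72 to 5.11 with SHP2 miR2, against 4.37 to 4.80 with CTRL miR, and 7 of the 12 rose with miR2 (11.8% of all genes, and 16.1% of the genes of lowest mean signal, did so) while CD163 was below the lower quartile on every array. The mean of 10 lymphocyte markers was 4.14 to 4.5 with miR1 and 4.37 to 4.70 with miR2, against 4.05 to 4.54 with CTRL miR. In both lists miR2 tumour 2 lay below the highest control. Of the lymphocyte markers, 3 of 10 rose with miR2, and CD2, MS4A1 and IL7R were below the lower quartile on every array. Of the other lists, 2 of 9 neural and neuroendocrine markers rose and 1 fell with miR2, 3 of 12 endothelial markers rose, 7 of 12 fibroblast markers rose and 1 fell, 3 of 8 adipocyte markers rose and 1 fell, and 1 of 7 skeletal muscle markers rose. Of the 12 luminal markers of the tumour cells themselves, 3 rose and none fell. Against control tumours 2 and 5 alone, where 4.37% of all genes passed, 1 macrophage, 1 fibroblast and 1 neural marker rose with miR2. There 1 fibroblast marker fell, and no lymphocyte, endothelial, adipocyte or skeletal muscle marker passed. Of the luminal markers 2 rose and 1 fell. The median change was 0.26 for the macrophage and 0.20 for the lymphocyte markers in that fit, against 0.39 and 0.31 with all controls. With a score of endothelial, macrophage and fibroblast markers in the model, where the share of all genes called for miR2 was 2.64% in place of 30.0%, none of the 4 genes passed (PTPRC 0.45, adjusted p = 0.121; PTPN7 0.22, 0.44; PTPRO 0.16, 0.632; PTPN5 -0.04, 0.945). The array reads human probes, and how far mouse RNA of host cells reaches them was not tested.

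The same 4 genes were lower with SHP2 miR1 than with SHP2 miR2, and PTPN3 and PTPN21, with FERM domains that tie them to the membrane skeleton, were higher. These 6 of 31 (19.4%, against 22.5% of all genes, 14.3% higher and 8.22% lower) were the members that differed between the hairpins. The difference, miR1 minus miR2, was -0.54 ± 0.14 for PTPN7 (SE, limma adjusted p = 0.0133), -0.57 ± 0.16 for PTPN5 (adjusted p = 0.0178) and -0.39 ± 0.11 for PTPRO (adjusted p = 0.0157), beside that of PTPRC above. PTPN3 had 6.96, 7.26 and 7.43 with miR1 and 6.67, 7.03 and 6.83 in miR2 tumours 1 to 3, against 6.95, 7.16 and 7.29 with CTRL miR. miR2 tumours 1 and 3 were the lowest of all. Its difference between the hairpins was 0.39 ± 0.12 (adjusted p = 0.0255), with changes of 0.09 (adjusted p = 0.692) and -0.29 (adjusted p = 0.0689) against CTRL miR. PTPN21 had 5.08, 5.45 and 5.73 with miR1 and 4.88, 5.09 and 4.68 in miR2 tumours 1 to 3, against 5.01, 5.14 and 5.52 with CTRL miR. Its difference was 0.50 ± 0.14 (adjusted p = 0.0188), with changes of 0.21 (adjusted p = 0.347) and -0.29 (adjusted p = 0.132).

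Apart from that of PTPRC, the differences between the hairpins lost their calls, with their direction kept, when single miR2 tumours were left out or the array set, of which all miR2 arrays lie in B, was a block. Without miR2 tumour 1 they were 0.30 for PTPN3, 0.50 for PTPN21, -0.42 for PTPN5, -0.49 for PTPN7 and -0.30 for PTPRO (adjusted p 0.153, 0.0732, 0.138, 0.0793 and 0.121). Without miR2 tumour 3 they were 0.38, 0.40, -0.50, -0.43 and -0.38 in the same order (adjusted p 0.107, 0.147, 0.117, 0.117 and 0.0842). PTPRC stayed past the threshold without either (adjusted p at most 0.029). With the array set as a block PTPRC was the 1 member called (-0.55, adjusted p = 0.00383, where 13.7% of all genes passed), and it was so again in set B alone (-0.55, adjusted p = 0.0389, 5.29% of all genes). The block left the others at 0.24 for PTPN3, 0.44 for PTPN21, -0.37 for PTPN5, -0.38 for PTPN7 and -0.29 for PTPRO (adjusted p 0.0991, 0.0667, 0.0858, 0.0624 and 0.0592). Quantile normalization (15.8% of all genes passed) ended the calls of PTPN3 (0.19, adjusted p = 0.177) and PTPRO (-0.22, adjusted p = 0.0717). With the score of host markers as a covariate, none of the 6 differences passed, that of PTPRC included. There PTPN13, PTPN14 and PTPRG were called lower with miR1 than with miR2 (3.66% of all genes passed).

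**Figure D2:**
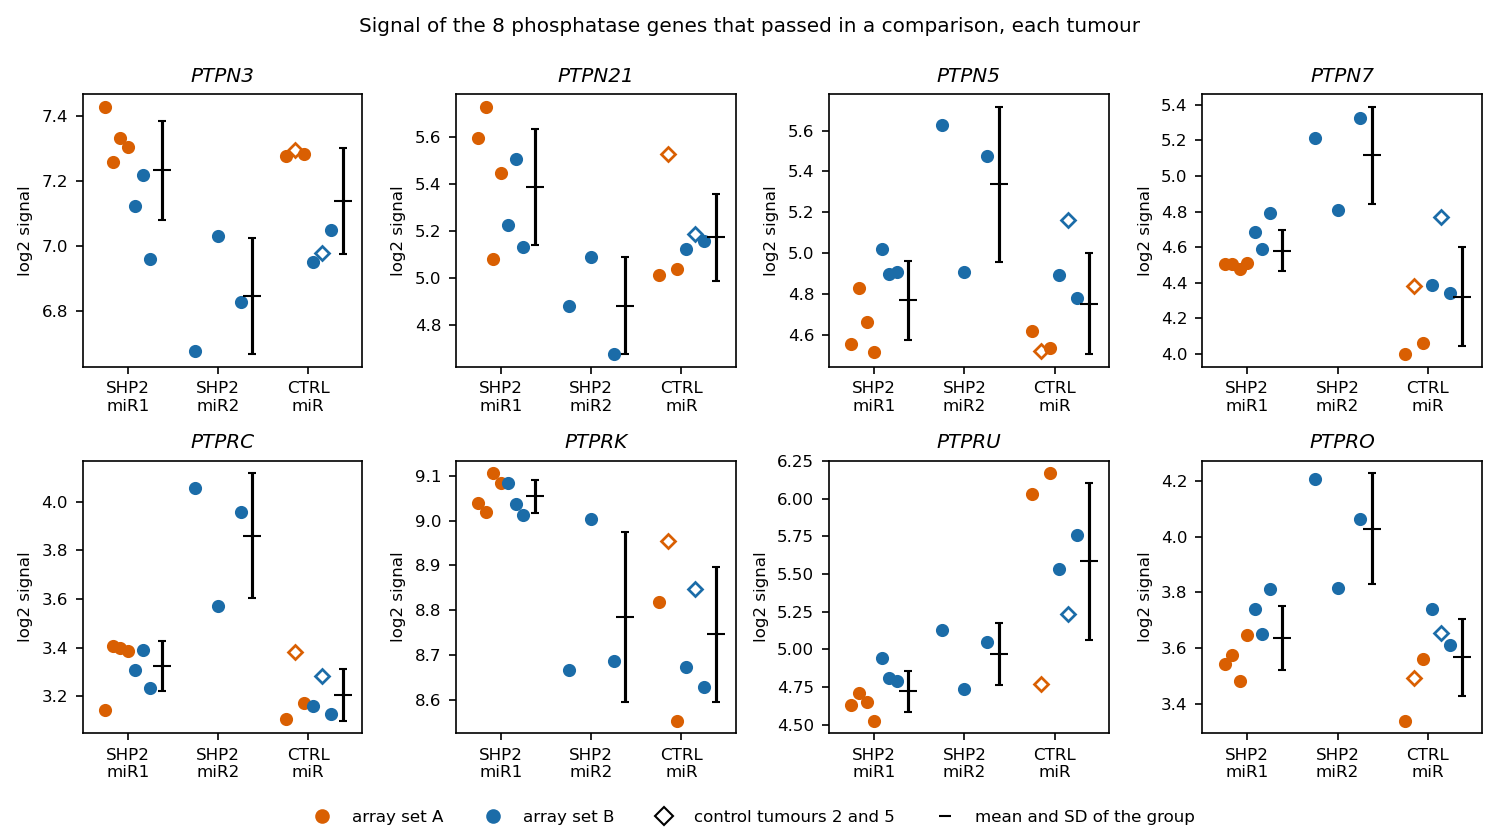
Log2 signal of the 8 genes that passed in a comparison, 1 point per tumour, for SHP2 miR1 (n = 7), SHP2 miR2 (n = 3) and CTRL miR (n = 6); colour gives the array set, open diamonds are control tumours 2 and 5, and bars show mean and SD. In PTPRU the open diamonds lie lowest among the controls, and in PTPRC, PTPN7 and PTPRO all SHP2 miR2 points lie above the rest.

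PTPRS, PTPRF and PTPRD form the LAR group, receptors with immunoglobulin and fibronectin domains that bind heparan sulphate proteoglycans and synaptic adhesion molecules. None passed in the comparisons above. Signals of PTPRF and PTPRS differed by array set. In set A PTPRF read 8.30 to 8.61, and in set B 7.66 to 8.23, without overlap (3 of 31 members, with PTPN1 and PTPN3, and 6.24% of all genes), and PTPRS read 7.68 to 8.12 in the arrays of set A, with 7.17 to 7.70 in those of set B. Within set A, PTPRS had 8.03, 8.04, 7.99 and 8.12 in miR1 tumours 1 to 4, against 7.82, 7.92 and 7.68 in control tumours 1 to 3. Within set B it had 7.58, 7.42 and 7.49 in miR1 tumours 5 to 7 and 7.47, 7.70 and 7.62 in miR2 tumours, against 7.20, 7.32 and 7.17 in control tumours 4 to 6. So PTPRS lay above every control in every knockdown tumour of each set, as 0.882% of all genes did.

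With the array set as a block, PTPRS rose by 0.30 ± 0.06 for both hairpins (SE, limma adjusted p = 0.00412), against 0.18 ± 0.14 (adjusted p = 0.357) without it. PTPRF rose by 0.25 (adjusted p = 0.0179) and PTPN18 by 0.32 (adjusted p = 0.03) in the same fit, which called 7 of the 31 genes for both hairpins (22.3% of all genes passed). These 3 genes were singled out after their values were seen. Within single sets none of them passed: PTPRS changed by 0.24 with miR1 in set A (adjusted p = 0.316), and by 0.26 with miR1 and 0.36 with miR2 in set B (adjusted p = 0.497 and 0.0522). Against control tumours 2 and 5 alone, without the block, PTPRS changed by 0.08 for both hairpins (adjusted p = 0.987). PTPN18 is a phosphatase that acts on HER2, and it had 6.45 to 7.05 with miR1 and 6.48, 7.10 and 7.09 in miR2 tumours 1 to 3, against 6.19 to 6.95 with CTRL miR. PTPRD was near background, below the lower quartile on 9 arrays.

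**Figure D3:**
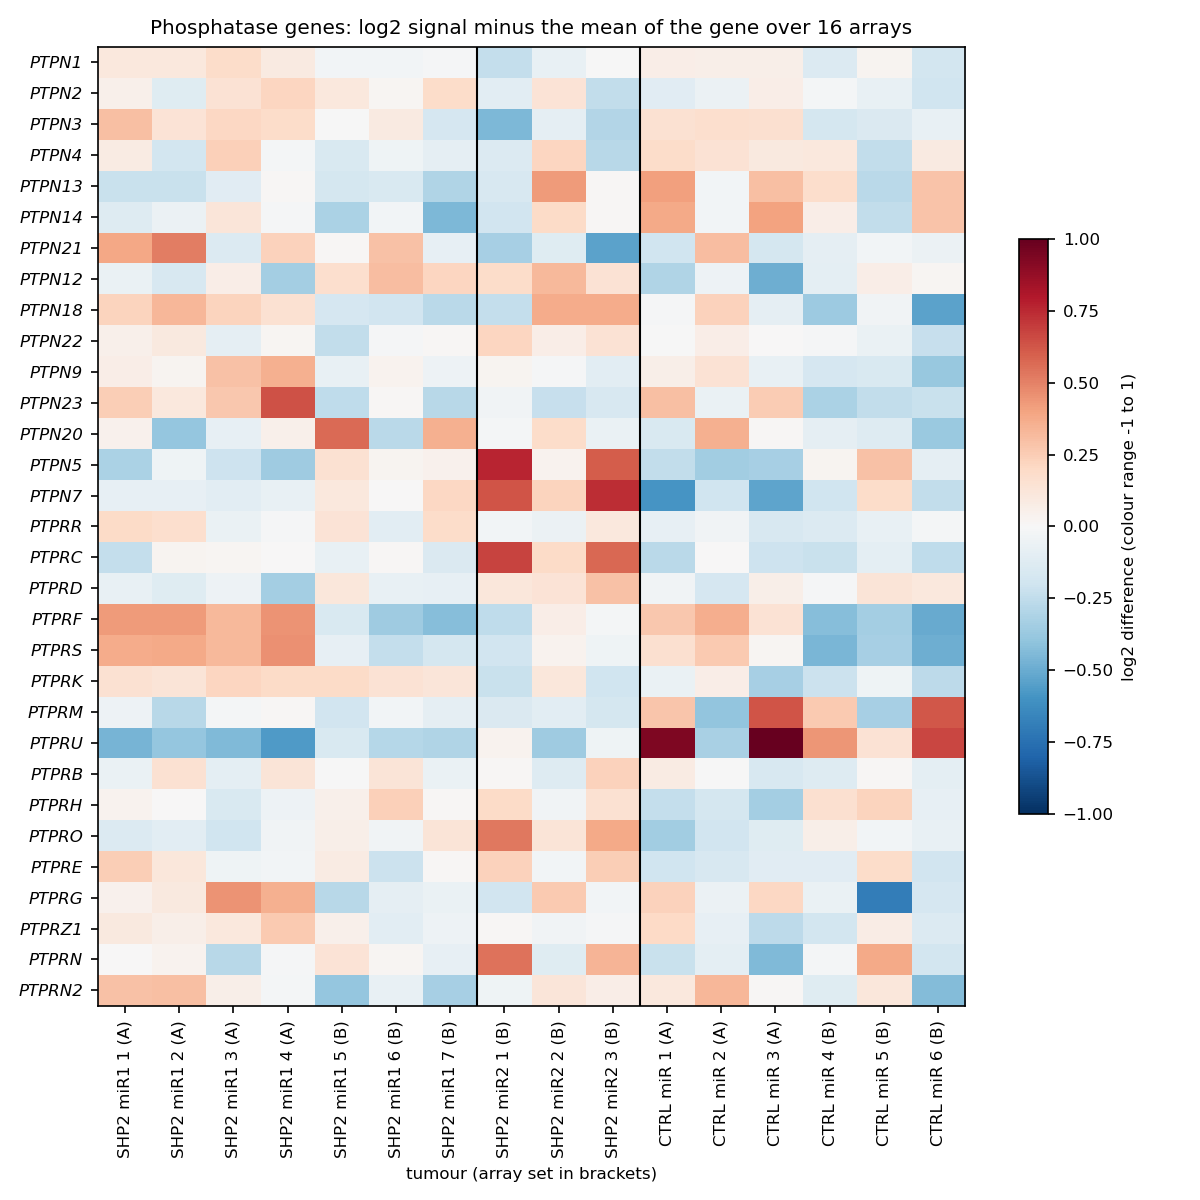
Log2 signal of the 31 genes minus the mean of each gene over 16 arrays, by tumour (columns, array set in brackets; SHP2 miR1, SHP2 miR2 and CTRL miR from left to right), with red above and blue below the mean and the colour range capped at 1 in either direction. PTPRU and PTPRM are red in control tumours 1, 3, 4 and 6, and PTPRF and PTPRS are red in the arrays of set A.

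The members not described so far did not pass in any of the 4 comparisons. PTPN1 (PTP1B), which acts on the insulin receptor, and PTPN2, which acts on JAK kinases, changed by 0.08 ± 0.08 and 0.15 ± 0.08 with miR1 and by -0.09 ± 0.10 and -0.01 ± 0.10 with miR2 (SE), and their 95% intervals all lay between -0.29 and 0.32. PTPN4 and PTPN13 carry FERM and PDZ domains. PTPN13 had 7.32 to 7.63 with miR1 and 7.45, 8.04 and 7.62 in miR2 tumours 1 to 3, against 7.34 to 8.03 with CTRL miR. Its change with miR1 was -0.31 ± 0.11 (limma adjusted p = 0.123), but -0.46 (adjusted p = 0.00276) against control tumours 1, 3, 4 and 6 and -0.02 (adjusted p = 0.992) against tumours 2 and 5. PTPN14, a FERM phosphatase that binds YAP1, changed by -0.27 ± 0.12 with miR1 (adjusted p = 0.216), by -0.41 (adjusted p = 0.0131) against the 4 controls and by 0.01 (adjusted p = 0.995) against the other 2.

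PTPN12 (PTP-PEST), which acts on focal adhesion proteins, came nearest to the threshold among the genes that did not pass with miR2. It had 7.89, 8.30 and 8.54 with SHP2 miR1 (lowest, median and highest) and 8.42, 8.56 and 8.38 in SHP2 miR2 tumours 1 to 3, against 7.74, 8.16 and 8.30 with CTRL miR. The miR2 tumours lay above all controls. The change with miR2 was 0.36 ± 0.14 (SE, limma adjusted p = 0.0586). PTPN12 did pass with miR2 after quantile normalization or median centring of the arrays (27.9% and 31.9% of all genes). It also passed with an intensity trend and robust prior or the replicate number as a block (29.9% and 39.5%). It did not pass with array weights, the array set as a block or the score of host markers. Without overlap between miR2 and control tumours, 4 members were higher (PTPN12, PTPN7, PTPRC and PTPRO) and none lower, against 6.55% and 11.2% of all genes. PTPN22, the lymphoid relative of PTPN12, was below the lower quartile on all 16 arrays.

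Among the remaining genes, PTPN9 binds lipids through a SEC14 domain and PTPN23 takes part in endosomal sorting, and their changes were 0.19 and 0.15 with miR1 and 0.06 and -0.09 with miR2. PTPRN and PTPRN2, proteins of secretory granules without phosphatase activity on tyrosine, changed by 0.07 and -0.02 with miR1 and by 0.35 (adjusted p = 0.0872) and 0.04 with miR2. PTPRN was highest in miR2 tumours 1 and 3 (5.44 and 5.23, with 4.78 in tumour 2) and in control tumour 5 (5.28). PTPRE, PTPRG and PTPRZ1, the last a receptor for pleiotrophin, changed by 0.12, 0.16 and 0.13 with miR1 and by 0.25, 0.11 and 0.06 with miR2. PTPRZ1 lay below the lower quartile on all arrays, as PTPN20 did on 13 and PTPRB on 12. For both hairpins the 27 genes that did not pass had changes of -0.29 to 0.30, with 95% intervals that reached from -0.58 at the lowest to 0.56 at the highest. A p that misses the threshold does not show that these genes were unchanged.

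Relatives, partners and substrates of the family were read from 3 lists. Of 33 measured genes of the wider phosphatase superfamily, none rose and 9 fell for both hairpins (27.3% called, against 18.6% of all genes; median change -0.15, against 0.03). CDC25C, which drives entry into mitosis, fell by 0.56 ± 0.11 (SE, limma adjusted p = 0.00225), with -0.26 for miR1 (adjusted p = 0.208) and -0.85 for miR2 (adjusted p = 0.000341), and the hairpins differed by 0.59 (adjusted p = 0.00605). MTMR8, of the myotubularin family, fell by 0.74 (adjusted p = 0.00316), and EYA4, a phosphatase and transcriptional cofactor, fell by 1.53 (adjusted p = 0.00482). Against control tumours 2 and 5 alone none of the 33 passed (1 had an unadjusted p below 0.05), where 0.751% of all genes did. CDC25C, MTMR8 and EYA4 changed by -0.18, -0.12 and 0.02 there.

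Of 47 measured ligands and partners of receptor phosphatases, 11 rose and 4 fell for both hairpins. This was 31.9%, against 18.6% of all genes (5.52% higher and 13.1% lower), with a median change of 0.17, against 0.03. PPFIA2, a liprin that binds LAR group receptors, rose by 1.2 ± 0.15 (SE, limma adjusted p = 8.86e-05), with a change of 2.40 ± 0.20 for SHP2 miR2 and -0.01 ± 0.16 for SHP2 miR1 (difference of miR1 minus miR2 -2.40, adjusted p = 1.25e-07). CNTNAP2, a neuronal adhesion protein, rose by 0.50 (adjusted p = 0.000786), with 0.07 for miR1 (adjusted p = 0.749) and 0.92 for miR2 (adjusted p = 1.33e-05), and the hairpins differed by -0.85 (adjusted p = 2.73e-05). NRCAM, another, rose by 0.60 (adjusted p = 0.00147), with 0.70 for miR1 and 0.49 for miR2 (adjusted p = 0.00312 and 0.0157). The proteoglycans SDC2, GPC4 and VCAN, whose sugar chains can bind these receptors, fell by 0.47, 0.64 and 1.41 (adjusted p = 0.00158, 0.00241 and 0.00608). Against control tumours 2 and 5 alone, 2 of the 47 rose and none fell (11 had an unadjusted p below 0.05), where 0.751% of all genes passed. PPFIA2 was 1.19 there (adjusted p = 0.016), CNTNAP2 0.34 (adjusted p = 0.419, but 0.76 and 0.00424 for miR2) and NRCAM 0.41 (adjusted p = 0.41), and SDC2, GPC4 and VCAN were -0.32, -0.23 and 0.02 (adjusted p 0.511, 0.844 and 0.997).

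Of 50 measured kinases, receptors and adaptors that tyrosine phosphatases act on, 1 rose and 4 fell for both hairpins. These 5 of 50 were a smaller share than the 18.6% of all genes called (5.52% higher and 13.1% lower). The median change of the list was 0.08, against 0.03 over all genes. PTK2B, a focal adhesion kinase, rose by 0.25 (adjusted p = 0.0405), with 0.09 for miR1 (adjusted p = 0.686) and 0.42 for miR2 (adjusted p = 0.00943), and the hairpins differed by -0.33 (adjusted p = 0.035). IGF1R, the receptor of insulin-like growth factors, fell by 0.90 ± 0.14 (SE, limma adjusted p = 0.000412), and its changes ran in opposite directions, 0.42 ± 0.14 with SHP2 miR1 (adjusted p = 0.101) and -2.23 ± 0.18 with SHP2 miR2 (adjusted p = 1.09e-07). The difference of 2.66 (adjusted p = 5.12e-09) passed. Against control tumours 2 and 5 alone IGF1R changed by -0.69 for both hairpins (adjusted p = 0.15) and by -2.01 for miR2 (adjusted p = 1.37e-05), and PTK2B by 0.05 for both (adjusted p = 0.987). KIT and FYN, tyrosine kinases, fell by 0.60 and 0.87 (adjusted p = 0.0277 and 0.0325), but were 0.14 and 0.32 against control tumours 2 and 5 alone. There none of the 50 passed for both hairpins (3 had an unadjusted p below 0.05), where 0.751% of all genes did. The calls of PTK2B, KIT and FYN were each lost without control tumour 1 (0.25, -0.60 and -0.79, adjusted p 0.0825, 0.0555 and 0.0833), 3 (0.23, -0.50 and -0.68, adjusted p 0.0995, 0.0851 and 0.1), 4 (0.23, -0.53 and -0.78, adjusted p 0.0947, 0.0721 and 0.0782) or 6 (0.22, -0.48 and -0.74, adjusted p 0.106, 0.0845 and 0.0916). They were also lost for KIT and FYN without miR2 tumour 2 (-0.57 and -0.77, adjusted p 0.05 and 0.0684) or 3 (-0.58 and -0.87, adjusted p 0.0679 and 0.0684), and for PTK2B without miR2 tumour 1 (0.25, adjusted p = 0.0783) or 3 (0.21, 0.127) or miR1 tumour 2, 3, 6 or 7 (0.25 in each, adjusted p 0.0527 to 0.0576).

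**Figure D4:**
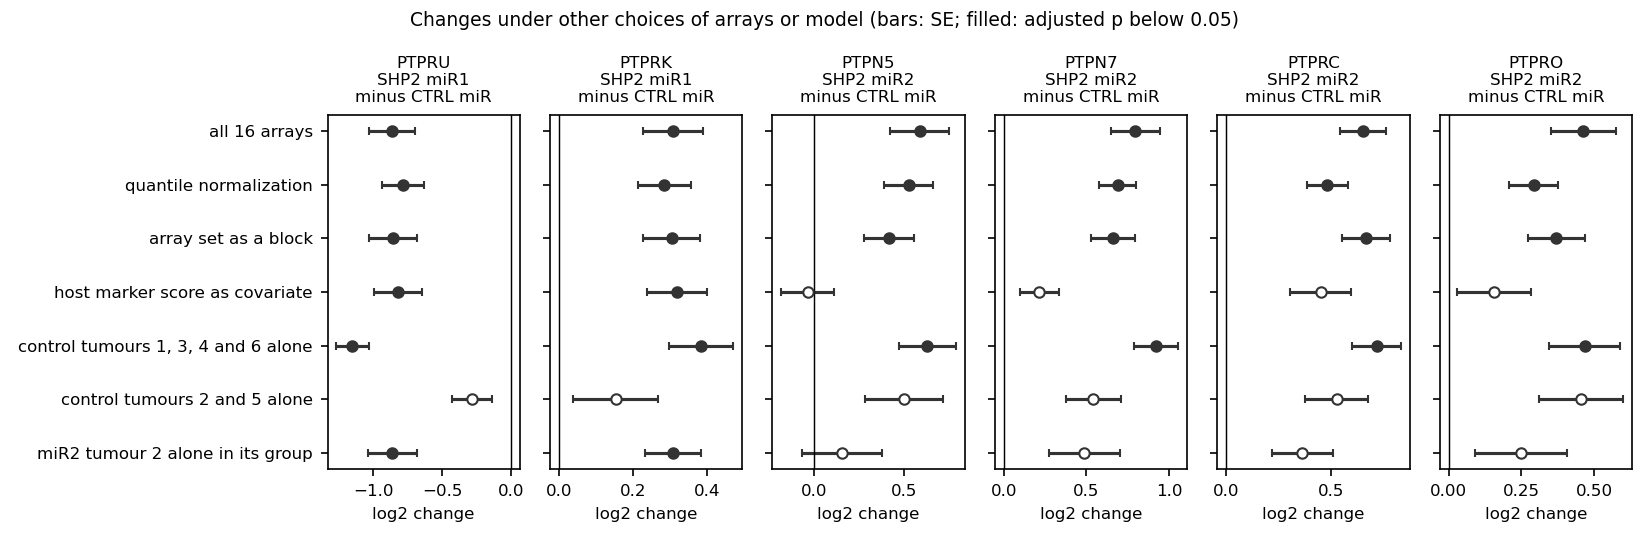
Log2 change of 6 called genes against CTRL miR (SHP2 miR1 for PTPRU and PTPRK, SHP2 miR2 for the others) under 7 choices of arrays or model; points are limma estimates, bars SE, and filled points passed at an adjusted p below 0.05. All 6 points are open against control tumours 2 and 5 alone, and PTPRU runs from -1.15 to -0.28 with the choice of controls.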

How the data were processed

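Total RNA (100 ng per tumour) was labelled for 16 HuGene-1_0-st arrays. The deposited values are the authors' processed log2 signals per transcript cluster. The log2 scale was read from the values (1.54 to 13.63, array medians 5.21 to 5.41). R 2.10 and oligo 1.8 are named in the submitters' processing notes, and the sources used here do not give background correction or normalization. Groups were taken from the sample titles. Clusters with 1 annotated symbol (19310 of 28869) were reduced to the cluster with the highest mean per gene, 18377 genes.

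All genes were fitted in 1 limma model (limma 3.58.1, R 4.3.3) over the 3 groups, with 13 residual degrees of freedom, 4 contrasts (both hairpins with equal weight), moderated variances and Benjamini-Hochberg adjustment over all genes in each contrast, with a threshold of 0.05. The code was tested on simulated data. Exact two-sided permutation tests (scipy 1.17.1, 7 in all) were run for members called against CTRL miR. The number of arrays limits precision.

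Members, gene lists and tests were chosen with earlier results of these data known. All members are accounted for, with values by sample for those called in any contrast. From each of the 3 pathway lists at most 3 genes in each direction were named, by smallest adjusted p for both hairpins. Alternatives covered normalization, filters, weights, blocks, covariates and the arrays used. The array sets and the control tumours set apart were read from expression, not labels.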

Additional observations from a re-analysis of the deposited data

Results flagged for a closer look

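In 3 of the 62 groups tested for a single value far from the rest, 1 control tumour stood apart, where chance gives about 1 in 20. PTPN4 read 5.8 in control tumour 5, below the next value of 6.14. PTPRE read 4.47 in the same tumour, above the next value of 4.18. PTPN21 read 5.52 in control tumour 2, above the next value of 5.19. Both tumours are the controls with low IRS4.

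For 6 genes the changes with the 2 hairpins differed from each other by limma's test of the difference, miR1 minus miR2. The difference was 0.39 for PTPN3 and 0.5 for PTPN21, which were higher with SHP2 miR1. It was -0.57 for PTPN5, -0.54 for PTPN7, -0.54 for PTPRC and -0.39 for PTPRO, which were lower with SHP2 miR1 than with SHP2 miR2. All 3 SHP2 miR2 arrays lie in array set B. With the set as a block PTPRC passed (-0.55), and the others kept their direction at 0.24, 0.44, -0.37, -0.38 and -0.29 for PTPN3, PTPN21, PTPN5, PTPN7 and PTPRO (adjusted p 0.0592 to 0.0991).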

How the results depend on the processing

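Counts of called members below are given for both hairpins, miR1, miR2 and the difference between the hairpins (4, 2, 5 and 6 of 31 as reported), as far as they moved by over 1.5 times. Without the genes of lowest mean signal, which leaves 17 members, 1 passed for both, 1 for miR2 and 3 for the difference (24.1%, 36.9% and 30.8% of all genes). Array weights gave 11 for both, 6 for miR1 and 9 for miR2 (38.3%, 18.3% and 48.3% of all genes). The score of host markers as a covariate gave 1 for both, 2 for miR2 and 3 for the difference (2.28%, 2.64% and 3.66% of all genes). These were PTPRG for both, PTPN13 and PTPRG for miR2, and PTPN13, PTPN14 and PTPRG for the difference, none of them among the calls reported. The score also turned PTPN5 with miR2 to -0.0374 (limma adjusted p = 0.945), and the cause was not tested. The array set as a block gave 7 for both and 1 for the difference. Set A alone gave 0 for miR1 (limma, 5 with an unadjusted p below 0.05), where 0.0544% of all genes passed. Set B alone gave 1 for both, 0 for miR1 (4 unadjusted), 3 for miR2 and 1 for the difference. There 1.67%, 0.00544%, 13.9% and 5.29% of all genes passed. Both fits had fewer samples. Control tumours 2 and 5 alone gave 0 for both, miR1 and miR2 (2, 2 and 5 unadjusted), and control tumours 1, 3, 4 and 6 alone, added after seeing the data, gave 12, 6 and 9. SHP2 miR2 tumour 2 as the lone miR2 tumour was also added and assumed to vary like the other groups. With 1 tumour in that group, no count is read from this fit. The median change of the 31 genes with miR2 was 0.11 there. Leaving out each tumour in turn gave 3 to 10 for both, 1 to 4 for miR1, 3 to 10 for miR2 and 1 to 8 for the difference (11.4% to 31%, 1.27% to 10.4%, 13.0% to 42.1% and 7.13% to 32.2% of all genes). The highest values came without control tumour 5 (10, 4 and 10) and, for the difference, without miR2 tumour 2 (8), and the difference count was 1 without miR2 tumour 1 or 3. PTPRU, PTPN7 and PTPRC for both hairpins, PTPRU for miR1, PTPRC and PTPN7 and PTPRO for miR2 and PTPRC between the hairpins passed in all 16 of these fits. The replicate number as a block gave 1 for miR1, 9 for miR2 and 10 for the difference (4.05%, 39.5% and 36.9% of all genes). Same-numbered tumours correlated at -0.42 to 0.37 over 12 pairs, 5 of them over 0.1, and 6 of 24 matched best with their own number, so that the numbers were not taken to pair tumours.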

Other observations

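PTPRA shares its transcript cluster with VPS16 and was therefore not among the 31 genes. In a fit of all clusters that shared cluster changed by 0.02 with SHP2 miR1 (limma adjusted p = 0.938) and by -0.11 with SHP2 miR2 (adjusted p = 0.405). The remaining 3 clusters of PTPN20 changed by 0.06, 0.04 and 0.02 for both hairpins (adjusted p 0.657 to 0.937).

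Within the SHP2 miR1 tumours, which share a hairpin, 14 of the 31 genes did not overlap between array sets A and B, against 29.1% of all genes. PTPN1, PTPN3, PTPN18, PTPN23, PTPRF, PTPRS, PTPRG, PTPRZ1 and PTPRN2 were higher in set A, and PTPN12, PTPN5, PTPN7, PTPRU and PTPRO were lower.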
